A study of Mus musculus with 2 samples.

Results

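The 31 genes described here are type I interferon response genes, a named list matched by symbol to the feature table of a single-cell RNA-seq series of mouse cardiac leukocytes. All 31 symbols were found, each once, among 32286 features. They comprise 12 RNA and antiviral effectors, 3 genes of ubiquitin-like conjugation and feedback, 2 membrane restriction factors, 6 nucleic acid sensors, 3 genes of signalling and transcription and 5 other induced genes. The names were chosen with earlier results of these data in view.

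The series held 2 libraries, both from hearts subjected to TAC, transverse aortic constriction, a surgical narrowing of the aorta that raises the pressure load on the left ventricle. In the control library the leukocytes came from a control bone marrow transplant (BMT), and in the LOY library from a transplant of marrow with loss of the Y chromosome. How the Y chromosome was removed, the time after TAC and the age of the mice are not given in the sources used here. From left ventricles digested with collagenases, hyaluronidase and DNase, viable cells carrying the leukocyte antigen CD45 and the red fluorescent marker of the transplant (DAPI-, CD45+, RFP+) were sorted, a gate set to leave out leukocytes of the host and non-leukocytes. Fibroblast-like cells (13 control and 10 LOY cells) and cluster 2, with cardiomyocyte genes among its leading genes (24 and 2 cells), were still present. Cells of 3 mice per group were pooled after sorting into 1 library of the 10x Genomics 3' v3.1 chemistry. With 1 library per group there is no test of the groups: differences below are between 2 libraries, and the transplant genotype cannot be told apart from the library, its depth and its handling. Intervals on levels, ratios and shares are exact 95% intervals that cover counting error only. For a count of 0 the limit given is that of 3 counts.

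After filtering, the control library kept 6577 cells with a median of 5069 UMIs (unique molecular identifiers, each standing for 1 captured transcript) and the LOY library 5177 cells with a median of 3006. The libraries shared 31 cell barcodes. Y-linked genes summed to 124 UMIs per 1000000 UMIs (CPM) in the control library and 14.3 CPM in the LOY library, in the direction of the labels. Cells were clustered without the members and without the other interferon gene lists, and 21 clusters resulted. Macrophage-like cells (defining markers C1qa, C1qb, C1qc, Adgre1, Mrc1, Cd68, Fcgr1, Csf1r, Mertk and Apoe, all present) were 3285 control and 2828 LOY cells. The class was made up differently in each library: clusters 1, led by Ccl4 and Egr1, and 3, led by H2-Eb1, gave 28.5% and 46.6% of its control cells but 1.94% and 10.7% of its LOY cells, while cluster 7, led by Spp1 and Syngr1, gave 0.791% and 54.6%. Clusters closest to macrophages by their markers, but with more markers of another type among their 10 leading genes, keep a number. They are 4 (led by Slc40a1 and Pla2g2d, with the monocyte marker F13a1), 6 (Ly6c2, Ly6a), 0 (Cd209a), 10 (Retnla, Mmp12, with the monocyte marker Fn1) and 2 (Myl7, Nppa). Cluster 4 held 10 of 10 macrophage markers and clusters 6 and 10 held 9 of 10. The member Isg20 and Irf7 were among the leading genes of cluster 6, though neither was used in clustering.

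Type I interferons are secreted by cells that sense foreign or misplaced nucleic acid, and they bind a receptor made of IFNAR1 and IFNAR2. The kinases JAK1 and TYK2 then activate a transcription factor complex that includes STAT2 and IRF9 and binds the interferon-stimulated response element (ISRE) in the promoters of many genes, and IRF3 and IRF7 can act on related elements. The products bind viral RNA, block viral entry and budding, sense nucleic acid and restrain the signal. Macrophages that carry these transcripts together are known from injured hearts.

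The promoter letters below are shown because they are what many of the members share beyond their name. They were read from RefSeq promoter windows of 250 bases before to 50 bases after the gene start (build GRCm38.p6), which covered 24 of the 31 members. The others are Rtp4, Usp18, Ifi204, Ifi27l2a, Zbp1, Iigp1 and Parp14. Each stretch is written 5′ to 3′ on the strand of its gene and lies upstream of the gene start, and capitals mark every match, on either strand, to the ISRE core GAAANNGAA, with overlapping matches merged into 1 run.
Isg15: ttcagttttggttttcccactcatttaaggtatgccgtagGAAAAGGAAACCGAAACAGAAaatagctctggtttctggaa
Ifit1: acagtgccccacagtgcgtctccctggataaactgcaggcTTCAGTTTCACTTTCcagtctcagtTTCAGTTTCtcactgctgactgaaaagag
Ifit3: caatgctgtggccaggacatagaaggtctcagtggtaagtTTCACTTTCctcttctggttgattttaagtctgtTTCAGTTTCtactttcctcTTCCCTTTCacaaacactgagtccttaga
Ifit3b: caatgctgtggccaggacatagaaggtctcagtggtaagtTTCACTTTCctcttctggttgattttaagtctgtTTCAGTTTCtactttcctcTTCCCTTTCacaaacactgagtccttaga
Rsad2: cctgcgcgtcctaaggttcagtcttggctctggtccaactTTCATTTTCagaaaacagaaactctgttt
Bst2: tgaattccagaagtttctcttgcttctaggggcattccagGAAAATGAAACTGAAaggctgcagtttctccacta
The Isg15 stretch lies at chr4:156200856-156200936 on the minus strand and holds 3 overlapping matches, the first starting 78 bases before the gene start. That of Ifit1 lies at chr19:34640740-34640833 on the plus strand and also holds 3, from 109 bases before the start. On the same chromosome and strand, the stretches of Ifit3 (chr19:34583334-34583455) and Ifit3b (chr19:34607730-34607851) are the same in all 122 letters, with 3 matches each. The Rsad2 stretch at chr12:26456543-26456611 (minus strand) holds 1 match, 119 bases before the start, and the Bst2 stretch at chr8:71537568-71537642 (minus strand) holds 2 that overlap, from 130 bases before it. Of the 24 members with a window 16 (66.7%) held the ISRE core, against 9.76% of the 27025 genes with a window, and 10 held at least 2 matches, against 0.736% of genes. The core of the gamma-activated site, TTCNNNGAA, stood in 6 of the 24 (25%) against 9.55% of genes. Ifit2, Oasl1, Oasl2, Ifi35, Xaf1, Cmpk2, Isg20 and Slfn4 had no ISRE core in this window, which says only that these letters are not there. A match is a description of letters and not of binding.

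Some members resemble another gene where the 3' method reads them. Of the 25-base words in the last 300 bases of their GENCODE M21 transcripts, Ifi205 shared 93.1% with Ifi211 and Ifi211 90.2% with Ifi205, Oas1a shared 55.4% with Oas1g and Ifit3 25.7% with Ifit3b. The split of counts within these pairs is uncertain. Several of these pairs are neighbours: Ifit1, Ifit2, Ifit3 and Ifit3b lie together on chromosome 19, and Ifi204, Ifi205 and Ifi211 on chromosome 1. Every other member shared at most 11.2% with its nearest match.

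Over all cells the members held 303457 UMIs in the control library, 0.804% of its UMIs or 8039 CPM, and 240120 UMIs in the LOY library, 1.38% or 13766 CPM. Of the 31 members 12 were over 1.5-fold higher in the LOY library over all cells and 1 was lower, against 6.04% and 9.03% of all genes that reached 10 CPM; the libraries hold different mixtures of classes. Ifitm3, a restriction factor of viral entry, and Ifi27l2a, a small interferon-induced membrane protein, gave most of both sums. Ifitm3 stood at 2337 CPM in control and 4828 CPM in LOY cells, and Ifi27l2a at 1843 and 3708 CPM. Without these 2 genes the sums were 3859 and 5231 CPM.

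**Figure D1:**
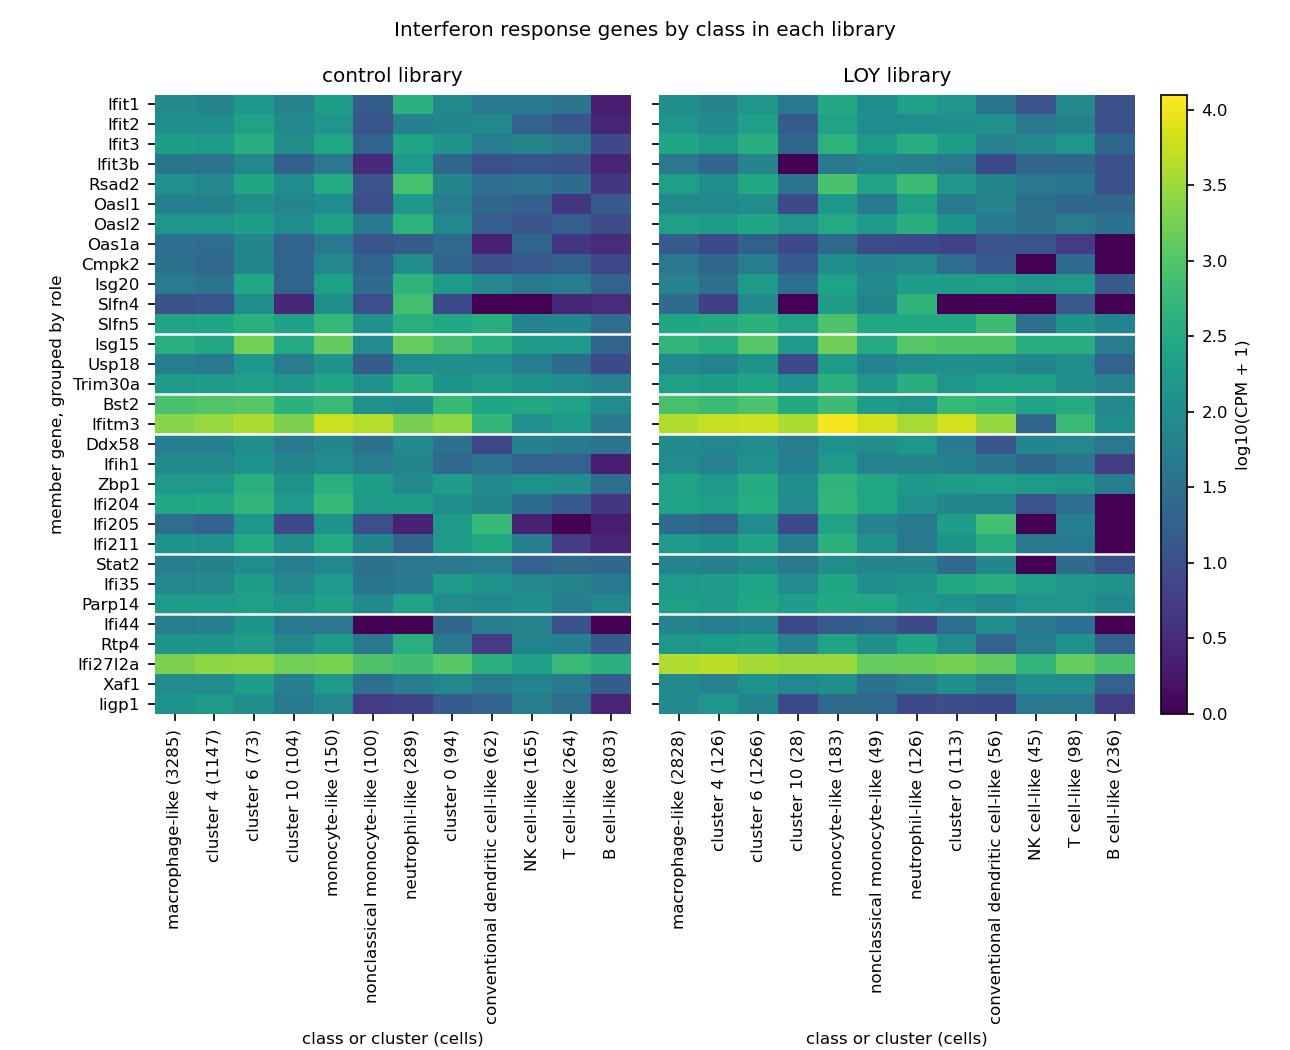
Level of each of the 31 members (rows, grouped by role) in 12 classes and clusters (columns, cells in brackets), as log10(CPM + 1) in the control library at left and the LOY library at right. Ifitm3 and Ifi27l2a form bright rows across the myeloid classes, and the B cell-like column is dark in both libraries.

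The members were not spread evenly over the classes. The summed level was highest, among classes and clusters of at least 45 cells, in monocyte-like cells (markers Ly6c2, Plac8, Ccr2 and Vcan among others), with 15123 CPM in control and 23827 CPM in LOY cells, and in cluster 6, with 14752 CPM over 73 control cells and 16484 CPM over 1266 LOY cells. Neutrophil-like cells held 9726 and 10945 CPM, cluster 4 held 9505 and 13971 CPM and macrophage-like cells 8335 and 13155 CPM, so that neutrophil-like cells were above both others in control cells and below them in LOY cells. Lymphoid classes were lower: T cell-like cells held 2052 and 4622 CPM, NK cell-like cells 2129.9 and 2749.9 CPM. The B cell-like sums, at 994 and 1720 CPM, were the lowest. Macrophage-like cells held most member UMIs, 57.4% in control and 61.0% in LOY cells, close to their shares of all UMIs (55.3% and 63.8%). Cluster 6 held 21.4% of the LOY library's UMIs and 25.6% of its member UMIs.

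Member by member, 15 of the 31 stood highest in cluster 6 and 11 in neutrophil-like cells among the 12 classes and clusters with at least 45 control cells. In the LOY library 18 of 31 stood highest in monocyte-like cells and 5 in neutrophil-like cells, among 11 classes and clusters. How often all genes stood highest in these groups is not given here, so the counts are not read as a trait of the members. Some of the groups were small or shallow: cluster 6 had 73 control cells, and the LOY neutrophil-like cells a median of 830 UMIs. Isg15, a ubiquitin-like protein that is conjugated to other proteins, ran from 19.9 CPM in B cell-like cells to 1355 CPM in neutrophil-like and 1671 CPM in cluster 6 cells of the control library. In the LOY library it ran from 50.8 CPM in B cell-like cells to 1649.7 CPM in monocyte-like cells, with 502 CPM in macrophage-like cells. Several effectors were neutrophil-led in the control library. Rsad2, which makes a chain-terminating nucleotide and blocks viral replication, stood at 803 CPM in neutrophil-like, 334 CPM in monocyte-like and 118 CPM in macrophage-like cells, and Slfn4, a myeloid Schlafen gene, at 720.3 CPM, 109 CPM and 9.58 CPM. In the LOY library Rsad2 was at 634, 833 and 216 CPM in the same order, so that monocyte-like cells came first there.

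Ifi205 followed another order than most members. This member of the HIN-200 family of nucleic acid sensors stood highest in conventional dendritic cell-like cells, with 567 CPM over 62 control cells and 738 CPM over 56 LOY cells, and next in cluster 0 (168 CPM) among control cells and in monocyte-like cells (230.1 CPM) among LOY cells. Its near copy Ifi211 was at 305 and 382 CPM in the same dendritic cells, and its counts cannot be separated from those of Ifi205 with certainty. Bst2 (tetherin, which holds budding virions at the cell surface) was more even across the macrophages, with 850.5 and 812 CPM in macrophage-like cells, and low in neutrophil-like cells, with 111 and 140.1 CPM. Plasmacytoid dendritic cell-like cells, which the antigen is classically used to mark, held 4599 CPM of Bst2 over 4 control cells and 4401 CPM over 11 LOY cells, and Bst2 was left out of the markers that named them.

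Free RNA from broken macrophages can give UMIs in cells that do not express a gene. C1qa, C1qb and C1qc, which lymphocytes lack, stood in B cell-like cells at 1.31% of their macrophage-like level in control cells and 2.14% in LOY cells. Ifitm3 in B cell-like cells was at 1.99% and 2.59% of the macrophage-like level, near the percentages of C1q. Whether its UMIs there are free RNA was not tested. Ifi27l2a at 21.1% and 20.4%, and Ifi35 at 59.7% and 75.2%, were above the percentages of C1q.

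Within macrophage-like cells, 6 of the 31 members were over 1.5-fold higher in the LOY library, on the log2(CPM + 10) scale used for all counts of this kind, and 1 was lower. Among all 7864 genes that reached 10 CPM in either library the shares were 7.8% and 7.73%. The higher members were Ifi27l2a, Ifi35, Ifitm3, Slfn4, Rsad2 and Oasl2 and the lower one was Oas1a. Slfn4 reached 10 CPM only in the LOY library, at 25.8 against 9.58 CPM. The median log2 ratio over the members was 0.28, against 0.02 over all these genes. The member sum was 1.58-fold higher in the LOY library (interval 1.57 to 1.59), and without Ifitm3 and Ifi27l2a it was 1.17-fold higher (1.16 to 1.19). In the same cells 22 of 25 dissociation and immediate early genes and 7 of 7 MHC class II genes were over 1.5-fold lower in the LOY library, and the part of these shifts in the members' ratios was not tested.

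The number past 1.5-fold depends on which cells form the class. It was 11 higher and 2 lower with clusters 4, 6 and 10 added (background 6.56% and 8.05%), a grouping chosen after seeing the data. It was 11 and 2 at a coarser clustering resolution of 0.5 (7.67% and 8.55%), and 18 and 1 when the interferon genes were left among the genes that define the clusters (7.9% and 8.74%). Ifi27l2a, Ifi35, Ifitm3, Slfn4, Rsad2, Oasl2 and Oas1a kept their direction in all 12 settings in which single members were recomputed, and of these Ifi27l2a, Ifi35, Ifitm3 and Rsad2 were past 1.5-fold in each. Ifi205, whose ratio was near 1, was on the other side of 1 in 6 of the 12. Settings that changed only the CPM added before the log, or only the 10 CPM minimum, could not change a direction. Agreement in those was fixed in advance.

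**Figure D2:**
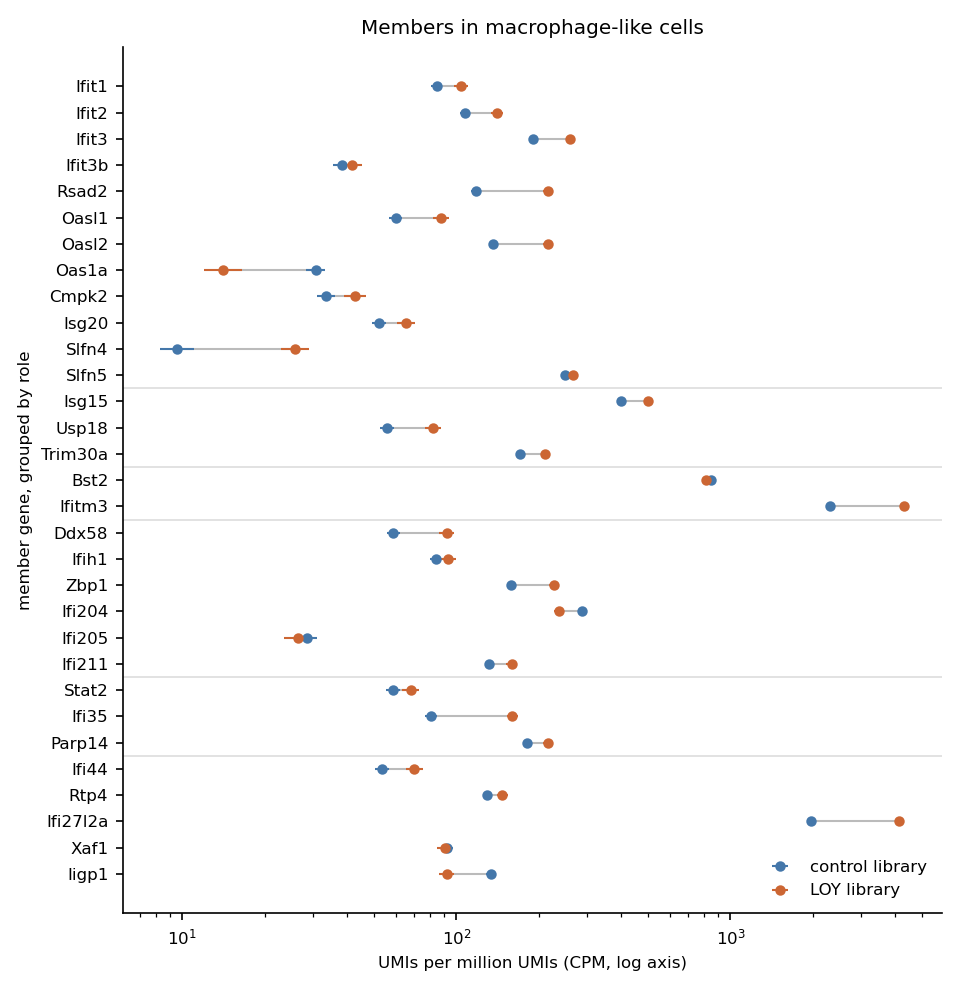
Level of each member in macrophage-like cells, in CPM on a log axis, with exact 95% Poisson bars, for the control library (blue) and the LOY library (orange). Ifi27l2a and Ifitm3 lie at the right with LOY points near 4100 and 4300 CPM, and Oas1a and Iigp1 are among the few genes whose LOY point lies to the left.

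Among the RNA and antiviral effectors, 3 of 12 were over 1.5-fold higher and 1 lower in macrophage-like cells, against 7.8% and 7.73% of all genes. Their sum was 1109 CPM in control and 1480 CPM in LOY cells. Rsad2 stood at 118 CPM in control and 216 CPM in LOY cells, a ratio of 1.84 (1.74 to 1.94). Ifit3, of the family that binds viral RNA ends, was at 191 and 260 CPM (1.36, 1.30 to 1.43), with its near copy Ifit3b at 38.2 and 41.4 CPM. Slfn5 was at 248 and 266 CPM (1.07, 1.02 to 1.12). Oas1a, an oligoadenylate synthetase that activates the ribonuclease RNase L, was at 30.7 and 14.1 CPM, 2.18-fold lower in the LOY library, and stood with its near copy Oas1g, which was at 10.5 and 6.47 CPM. The direction of the ratio thus differed between Oas1a and the effectors above, and 1 lower gene of 12 is near the share of all genes. Oasl2, an oligoadenylate synthetase-like protein, was at 136 and 216 CPM (ratio 1.59), while Oasl1 was at 60.1 and 87.9 CPM, within 1.5-fold. Ifit1 stood at 84.7 and 104 CPM, Ifit2 at 107 and 141 CPM, Cmpk2 at 33.6 and 42.7 CPM and Isg20 at 52.2 and 65.5 CPM, all within 1.5-fold.

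Isg15, Usp18, which removes ISG15 from proteins and dampens the receptor, and Trim30a, a ubiquitin ligase, all had ratios between 1 and 1.5. Usp18 was at 55.9 and 82.1 CPM. Isg15 stood at 398 CPM in control and 502 CPM in LOY cells (1.26, 1.22 to 1.30) and Trim30a at 170.0 and 211 CPM (1.24, 1.18 to 1.31). The membrane factors diverged: Ifitm3 was at 2304 and 4285 CPM (1.86, 1.84 to 1.88) and Bst2 at 850.5 and 812 CPM (0.955, 0.931 to 0.979). None of the 6 nucleic acid sensors passed 1.5-fold in either direction, beside 7.8% higher and 7.73% lower of all genes. Ifi204, a HIN-200 sensor, was at 288 and 236 CPM (0.821, 0.784 to 0.860), and Ddx58, which encodes the RNA sensor RIG-I, was at 58.9 and 92.2 CPM, just inside the threshold at a log2 ratio of 0.57. Zbp1, a sensor of Z-form nucleic acid that can start necroptosis, was at 158 and 226 CPM, and Ifih1, which encodes the RNA sensor MDA5, was at 84.0 and 93.6 CPM. Ifi211 was at 132 and 159 CPM and Ifi205 at 28.5 and 26.4 CPM, with the split between them uncertain.

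Of the signalling genes, Stat2, a subunit of the factor that binds the ISRE, was at 58.8 and 68.0 CPM. Parp14, which attaches ADP-ribose to proteins, was at 181 and 215 CPM, and Ifi35 at 80.7 and 159.8 CPM (1.98, 1.85 to 2.12). Among the other induced genes Ifi27l2a had the widest gap, at 1968 and 4105 CPM (2.09, 2.06 to 2.11). Iigp1, an immunity-related GTPase, went the other way, at 134 CPM in control and 92.2 CPM in LOY cells, 1.45-fold lower. Ifi44 (53.7 and 70.3 CPM), Rtp4, a chaperone of membrane receptors (129.7 and 147 CPM), and Xaf1, a partner of the apoptosis inhibitor XIAP (92.7 and 90.8 CPM), lay within 1.5-fold. The counting interval of the ratio lay above 1 for 24 members and below 1 for 4. With this many UMIs the interval of a small ratio, such as 1.07 for Slfn5, can lie above 1. The share of all genes with such intervals is not given here, so these counts describe the members alone.

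Clusters that both libraries filled gave a check on the unequal makeup of the class. In cluster 3, the MHC class II-led cluster with 1531 control and 304 LOY cells, the member sum was 8292 CPM in control and 11350 CPM in LOY cells, and 5 of 31 members were higher and 0 lower, against 6.75% and 9.36% of all genes. Rsad2 was the highest there by ratio, at 119 and 344 CPM. In cluster 5 (Emp1, Lyve1, Cbr2; 156 and 467 cells) the sums were 10425 and 14069 CPM, and 3 members were higher and 2 lower against 4.82% and 12.4%. The 3 were Ifi27l2a, Ifi35 and Ifitm3, and without Ifitm3 and Ifi27l2a the sums were 4085 and 4028 CPM. In cluster 19, led by the cell cycle genes Hist1h1b and Top2a (153 and 374 cells), the sums were 6860 and 11558 CPM, with 12 higher and 1 lower against 6.55% and 11.2%. Ifi205 was the lower one, at 102 and 36.5 CPM.

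Monocyte-like cells, 150 control and 183 LOY cells, had 13 members higher and 3 lower, against 8.57% and 16.4% of all genes, and a median log2 ratio of 0.45 against -0.07. Rsad2 stood at 334 CPM in control and 833 CPM in LOY cells (2.49, 2.16 to 2.87), Ifitm3 at 6199 and 11195 CPM (1.81, 1.74 to 1.87) and Slfn4 at 109 and 195 CPM. The lowest ratios were those of Iigp1, at 77.6 and 25.4 CPM, Ifi44, at 41.1 and 13.7 CPM, and Oas1a, at 44.8 and 25.4 CPM. The last of these rests on 13 LOY UMIs, and its ratio interval, 0.282 to 1.06, includes 1.

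In cluster 4 (1147 control and 126 LOY cells) 3 members were higher and 2 lower, against 7.83% and 13.1%. Ifi35 was at 84.4 and 178 CPM, Ifi27l2a at 2489 and 4693 CPM and Ifitm3 at 2987 and 5418 CPM. Bst2 was lower there, at 953 and 631 CPM (0.662, 0.582 to 0.751), as was Oas1a at 28.3 and 7.43 CPM, the latter from 3 LOY UMIs. Without Ifitm3 and Ifi27l2a the member sum was 0.958 times that of the control (an interval that includes 1), so that no difference was detectable at this depth.

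Neutrophil-like cells (289 and 126 cells) had 9 members higher and 6 lower of 29 that reached 10 CPM, against 19.5% and 22.7% of all genes in a class with only 830.0 UMIs per LOY cell at the median. The number lower was near the share of all genes. The counting interval of the ratio lay above 1 for 4 members and below 1 for 8, and the share of all genes with such intervals is not given here. Isg20, an exonuclease for single-stranded RNA, stood at 458 CPM in control and 184 CPM in LOY cells (0.403, 0.257 to 0.605), Ifit3b at 156 and 59.0 CPM and Ifit1 at 425 and 221 CPM. Ifi35 was at 50.5 and 125 CPM, Ifi27l2a at 684 and 1431 CPM and Ifitm3 at 1824 and 3629 CPM. Ifi205 had the highest ratio there but rests on 1 control and 6 LOY UMIs. Without Ifitm3 and Ifi27l2a the sum was 7218 CPM in control and 5886 CPM in LOY cells.

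B cell-like cells (803 and 236 cells) measured only 18 of the 31 members, mostly from few UMIs. Of these 9 were higher and 1 lower, against 9.66% and 22.1%. The counting interval lay above 1 for 6 and below 1 for 0, and the share of all genes with such intervals is not given here. Oasl2 was at 7.94 and 32.4 CPM from 14 and 7 UMIs, and Ifi35 at 48.2 and 120.2 CPM from 85 and 26 UMIs. Ifitm3 was at 46.0 and 111 CPM, a part of its macrophage-like level near that of C1q. The lowest ratios were those of Stat2 (22.1 and 9.25 CPM), Isg20 (18.2 and 13.9 CPM) and Bst2 (93.6 and 83.2 CPM), and each of their intervals includes 1.

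**Figure D3:**
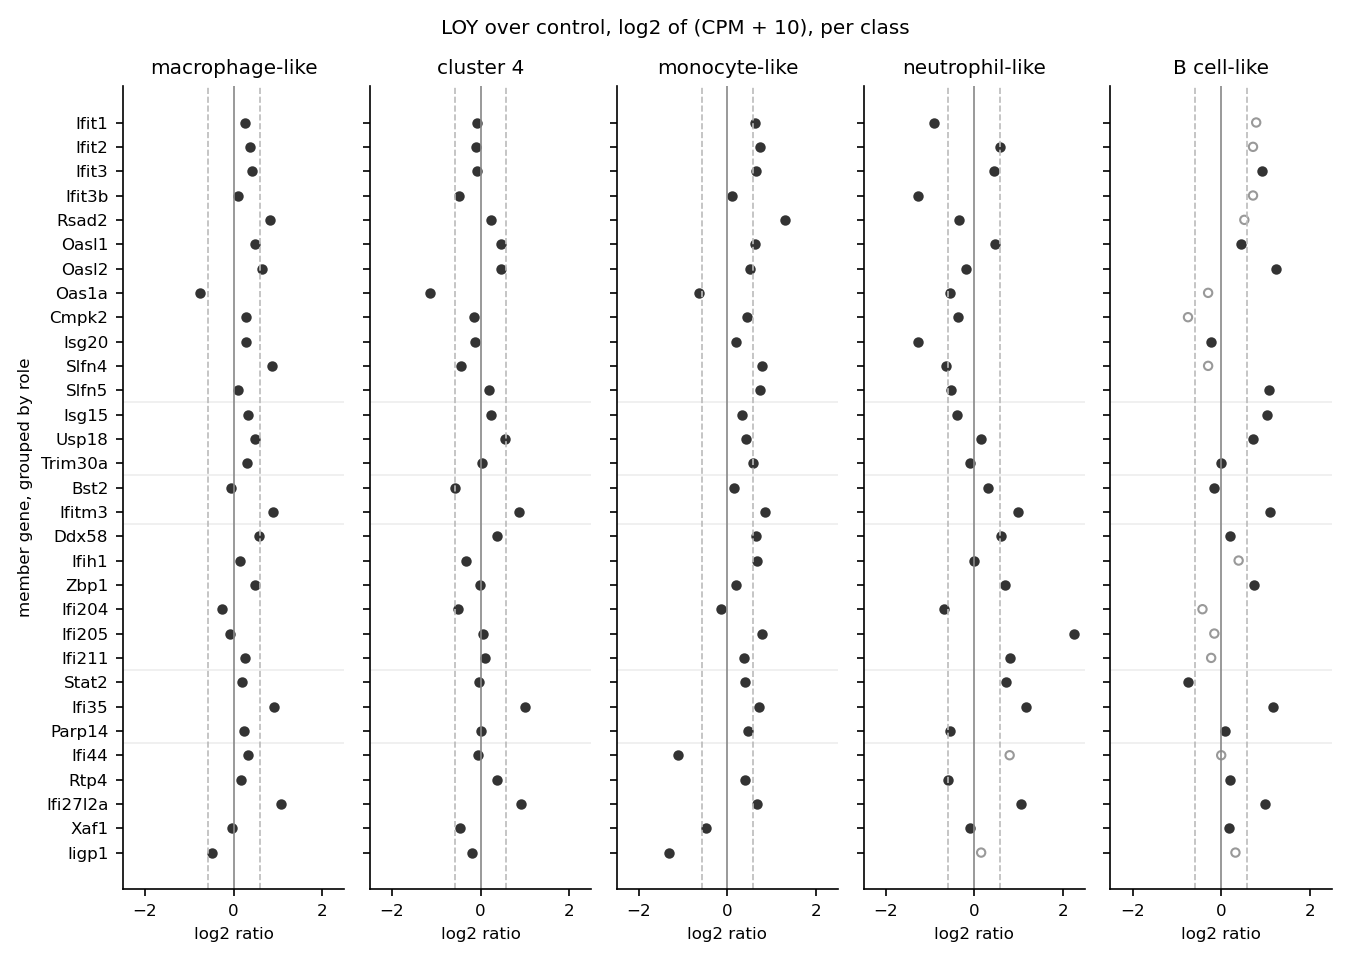
Log2 ratio of LOY over control for each member in the 5 groups with at least 100 cells in both libraries, on the log2(CPM + 10) scale, with dashed lines at 1.5-fold and open circles where neither library reached 10 CPM. Ifi27l2a, Ifi35 and Ifitm3 lie to the right of the upper line in all 5 panels, and Oas1a lies to the left of 0 in all 5.

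Across the 5 groups, Ifi27l2a, Ifi35 and Ifitm3 were over 1.5-fold higher in the LOY library in each, with log2 ratios of 0.68 to 1.06, 0.71 to 1.16 and 0.85 to 1.11. For Ifitm3 the ratio in B cell-like cells is not relied on. It rests on 24 LOY UMIs, at a part of the macrophage-like level near that of C1q, and whether these are free RNA was not tested. Oas1a was below 0 in each, from -1.14 to -0.30, although it reached 10 CPM in neither library in B cell-like cells and rests on 1 LOY UMI in neutrophil-like cells. The other members varied in size or sign from class to class. Rsad2 ran from -0.34 in neutrophil-like to 1.29 in monocyte-like cells, and Isg15 from -0.39 in neutrophil-like to 1.03 in B cell-like cells. For Isg15 the B cell-like value rests on 35 control and 11 LOY UMIs, and the neutrophil-like value on 965 and 140. The groups share their 2 libraries, so the 5 ratios of a gene are not independent of each other.

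The cells that carry the response were sought with 6 of the members, Isg15, Ifit1, Ifit2, Ifit3, Ifit3b and Rsad2, which leaves 25 members that played no part in the choice. Each cell was thinned to 1000 UMIs so that depth would not set the count, and a cell with 3 or more UMIs of the 6 genes was counted as carrying. In macrophage-like cells 318 of 3263 control cells (9.75%, 8.75 to 10.8) and 387 of 2768 LOY cells (14.0%, 12.7 to 15.3) did. Most macrophage-like cells, 71.0% and 62.0%, held no UMI of the 6 genes at this depth. The cut divides a range rather than a type: 158 control and 190 LOY cells held 2 UMIs, and 154 and 144 held 3 to 4. Before thinning, the 6 genes stood at 937 and 1264 CPM in the class.

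Carrying cells occurred in every macrophage cluster and were not most of any. Their share in the control library ran from 6.90% (24 of 348 cells) in cluster 8 to 11.0% (167 of 1516 cells) in cluster 3, apart from cluster 7 with 6 of 25 cells. In the LOY library it ran from 7.14% (3 of 42 cells) in cluster 17 to 15.7% (239 of 1521 cells) in cluster 7. Where both libraries had over 100 cells the shares were 11.0% and 13.4% in cluster 3, 9.03% and 10.5% in cluster 5, and 7.24% and 13.3% in cluster 19. The intervals of the libraries overlapped in all 3 of these clusters, and in cluster 19 they were 3.67 to 12.6 and 10.0 to 17.2. They cover counting error over cells of 1 library per group, so their overlap does not show that the shares are alike.

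Monocyte-like cells and cluster 6 held more in both libraries. The share in monocyte-like cells was 23.3% of 150 control cells (16.8 to 30.9) and 30.6% of 180 LOY cells (23.9 to 37.8), and in cluster 6 it was 29.9% of 67 control cells and 25.8% of 1245 LOY cells. In neutrophil-like cells it was 22.4% of 286 control cells, and 6 of the 31 LOY cells deep enough to be thinned, with 95 left out. T cell-like cells carried in 3.03% of 264 and 5.95% of 84 cells. Conventional dendritic cell-like cells carried in 6 of 62 control cells (9.68%, 3.63 to 19.9) and 12 of 56 LOY cells (21.4%, 11.6 to 34.4). B cell-like cells, the class with the lowest member sum, are given for comparison: 1 of 796 control cells and 0 of 62 LOY cells carried, and 3 of 62 cells would be a share of 4.84% (exact upper bound 5.78%). Over all cells the shares were 8.71% and 17.3%. Cluster 6 gave 3.52% of the carrying cells of the control library and 38.7% of those of the LOY library.

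**Figure D4:**
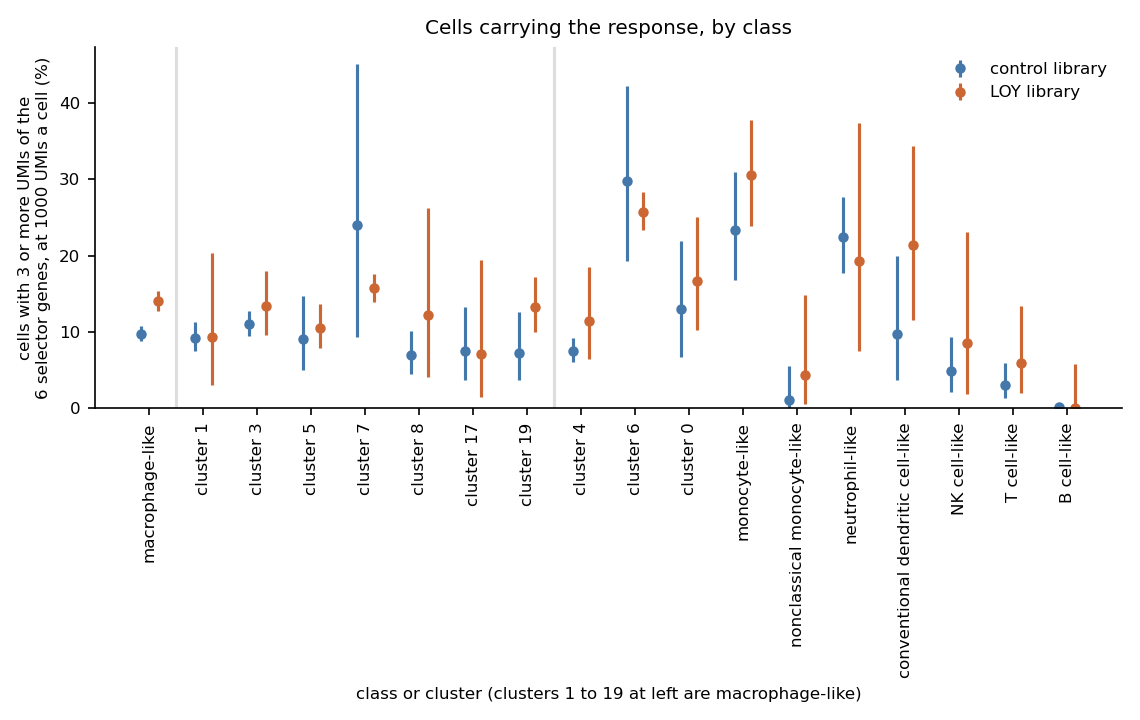
Percent of cells with 3 or more UMIs of the 6 selector genes after thinning to 1000 UMIs a cell, for the macrophage-like class, its 7 clusters and the other groups, in the control (blue) and LOY (orange) libraries with exact 95% binomial bars. Monocyte-like cells, cluster 6 and neutrophil-like cells lie near 20% to 30%, most macrophage clusters near 10%, and B cell-like cells near 0.

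In the carrying macrophage-like cells the members that had not been used to pick them were higher as well. On the log2(CPM + 10) scale 25 of 25 were over 1.5-fold higher than in the other macrophage-like cells of the control library, where 4.38% of all genes were, and 24 of 25 in the LOY library, where 3.94% were. None was lower, against 1.07% and 1.66% of all genes. Slfn4, at 6.95 CPM in the other and 32.2 CPM in the carrying control cells, met the 10 CPM minimum only through the carrying cells. The exception was Ifi27l2a, at 3921 CPM in the other and 5211 CPM in the carrying LOY cells (1.33, 1.30 to 1.36). Cmpk2, a mitochondrial nucleotide kinase that neighbours Rsad2 on chromosome 12, had the widest gap: 12.6 CPM in the other and 213 CPM in the carrying control cells (16.9, 14.4 to 19.8), and 14.4 and 205 CPM in the LOY cells (14.2, 11.6 to 17.5). Usp18 stood at 29.8 and 280.5 CPM in control cells and 39.4 and 326 CPM in LOY cells, and Oasl1 at 31.2 and 309 CPM, and 53.2 and 289 CPM. At the other end Ifitm3 was at 2066 and 4355 CPM in control cells and 3837 and 6902 CPM in LOY cells, and Bst2 at 758 and 1648 CPM, and 711 and 1396 CPM.

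The same held in the other myeloid groups that had enough carrying cells. In monocyte-like cells 25 of 25 other members were over 1.5-fold higher in the 35 carrying control cells than in the rest (background 13.9% higher and 24.2% lower) and 24 of 25 in the 55 carrying LOY cells (19.6% and 22.1%). In cluster 6 the counts were 25 of 25 in 20 control cells (22.1% and 23.9%) and 25 of 25 in 321 LOY cells (6.8% and 4.08%), and in cluster 4 they were 24 of 25 in 85 control cells (4.83% and 4.2%) and 23 of 24 in 14 LOY cells (23.9% and 33.2%). In neutrophil-like cells of the control library it was 22 of the 22 measured (16% and 26.4%), from 64 carrying cells. In each of these groups 0 of the other members that reached 10 CPM were over 1.5-fold lower. Either set of cells could meet this minimum, so some members entered only through the carrying cells, which fixed their direction in advance. Among control cells these included Oas1a and Ifi211 in neutrophil-like cells and Ifi44 and Iigp1 in monocyte-like cells. Iigp1 in control neutrophil-like cells, with 4 UMIs in the other and 0 in the carrying cells, was left out by the minimum. When the interferon genes were left among those that define clusters, a cluster led by Ifit2, Ifit3, Rsad2 and Cxcl10 formed, with 335 control cells (5.09%) and 766 LOY cells (14.8%).

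The carrying cells were 9.75% and 14.0% of the macrophage-like cells. They held 31.1% and 35.7% of the UMIs of the 23 other members without Ifitm3 and Ifi27l2a, against 10.4% and 14.8% of all UMIs. The summed level of the other 25 members was higher at each step in the number of selector UMIs: 5599 CPM in control cells with 0, 8319 CPM with 1, 10892 CPM with 2, 14202 CPM with 3 to 4 and 18664 CPM with 5 or more. LOY cells gave 8993, 13008, 15274, 17925 and 22294 CPM. These sums are a description, since cells were binned by genes of the same response.

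**Figure D5:**
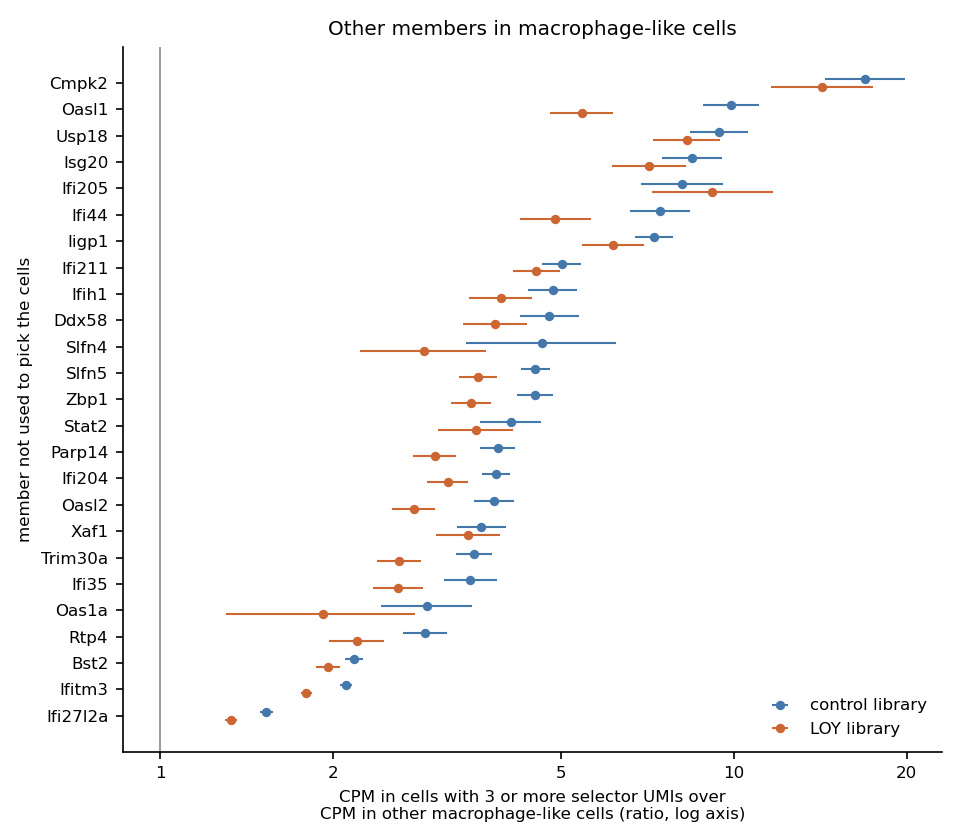
Ratio of the level in macrophage-like cells with 3 or more selector UMIs over the level in the other macrophage-like cells, for the 25 members that were not used to pick the cells, with exact 95% intervals, on a log axis. Cmpk2 lies at the top near 17 in the control (blue) and 14 in the LOY library (orange), and Ifi27l2a, Ifitm3 and Bst2 lie at the bottom, near 2 or below.

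Depth and other cell types were compared between carrying and other macrophage-like cells. Median UMIs per cell were 5938 and 5503 in control cells and 3817 and 3445 in LOY cells. At 1000 UMIs a cell, the 10 macrophage markers had a median sum of 44 and 44 UMIs in control cells. In LOY cells it was 65 and 66. The medians of the neutrophil, T cell, B cell and NK cell markers were 0 in all 4 sets of cells. With means this low they had to be 0, so mixed cells could not show. NK cell markers had higher means in carrying cells: 0.0629 and 0.0119 UMIs in control and 0.0310 and 0.00588 in LOY cells. T cell and B cell means were lower in both libraries, and neutrophil means were higher only in control cells. Whether carrying cells included mixed cells was not tested. Of the 7 measured MHC class II genes 0 were over 1.5-fold higher or lower in the control carrying cells, against 4.38% and 1.07% of all genes. In the LOY ones 0 of 6 were, against 3.94% and 1.66%. None of the 25 dissociation and immediate early genes passed 1.5-fold in either library. Beside such small shares of all genes, a count of 0 in lists this short is near the background.

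Ratios of LOY to control were also taken within cells matched for selector UMIs. In macrophage-like cells with 0 selector UMIs (2316 and 1717 cells), 5 of the 25 other members were over 1.5-fold higher and 2 lower in the LOY library, against 7.85% and 7.69% of all genes, with a median log2 ratio of 0.19 against 0.03. In the carrying cells (318 and 387) 3 were higher and 3 lower, against 9.07% and 11.2%, with a median of -0.09 against -0.01. Ifi27l2a kept a ratio of 2.08 (2.04 to 2.11) in cells with 0 and 1.82 (1.77 to 1.88) in carrying cells, and Ifitm3 1.76 (1.73 to 1.79) and 1.58 (1.54 to 1.63). Bst2 was at 0.913 and 0.847, and Oas1a at 0.435 and 0.319.

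The spread of each member's UMIs over macrophage-like cells was also described. The variance over the mean of UMIs per cell, at 1000 UMIs a cell, is 1 where counts fall at random over like cells. At the same unevenness it rises with the mean, which in LOY cells ran from 0.0145 UMIs for Oas1a to 4.24 for Ifitm3. Members or libraries of unlike level therefore cannot be ranked for unevenness by this value. The variance over the mean was 3.35 for Isg15, 2.81 for Rsad2 and 2.29 for Ifit3 in the control library, and 2.91, 2.94 and 1.96 in the LOY library. For Oas1a it was 1.01 and 1.04 and for Xaf1 1.07 and 1.05, and the median over the members was 1.33 and 1.30. Ifitm3 and Ifi27l2a had ratios of 2.40 and 2.49 in control and 3.15 and 3.81 in the LOY library, but were detected in most cells: 76.8% and 71.2% of control and 89.2% and 85.7% of LOY macrophage-like cells held a UMI (95.9%, 94.8%, 96.9% and 94.7% unthinned). Isg15 was found in 18.9% and 24.96% (44.6% and 43.9% unthinned).

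Genes upstream of the response and other targets were taken from lists from which members had been removed. Of 20 interferon ligands none reached 10 CPM in macrophage-like cells. Ifnb1, which encodes interferon beta, had 63 UMIs in 3285 control macrophage-like cells, but 61 of them lay in 1 cell. In the LOY cells it had 0, and 3 counts would be 0.270 CPM (exact upper bound 0.332 CPM). Ifng, the type II interferon, was at 0 UMIs in control and 2 UMIs in LOY macrophage-like cells, and stood in NK cell-like cells at 313 and 352 CPM and in T cell-like cells at 65.9 and 30.7 CPM.

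Among 13 genes of the receptors and signal transduction 0 were over 1.5-fold higher and 2 lower in macrophage-like cells, against 7.8% and 7.73% of all genes. Ifnar1 was at 86.5 CPM in control and 73.6 CPM in LOY cells, Ifnar2 at 265 and 258 CPM, Irf9 at 72.1 and 68.7 CPM and Ptpn6 at 221 and 259 CPM. Socs3 (146 and 35.0 CPM) and Socs1 (18.7 and 4.76 CPM), feedback inhibitors of cytokine signalling, were the lower ones. Socs1 reached 10 CPM only in the control library. Of 15 measured genes that sense nucleic acid or relay to interferon 2 were higher and 1 lower, beside the same shares of all genes. Irf7, which amplifies interferon production, was at 231 and 409 CPM. Ikbke, at 6.03 and 15.2 CPM, reached 10 CPM only in the LOY library. Irf5 was the lower one, at 135 and 54.2 CPM, and Myd88, with the next lowest ratio, was at 42.2 and 34.6 CPM.

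Of 59 other type I interferon stimulated genes measured in macrophage-like cells 10 were higher and 0 lower in the LOY library, with a median log2 ratio of 0.17, beside 7.8% and 7.73% of all genes. Irf7 and Irf9 stand in this list too. Ly6a (215 and 781 CPM) and Ly6e (1243 and 2763 CPM) had the highest ratios, and Oas1g (10.5 and 6.47 CPM) and Ifi213 (71.4 and 56.6 CPM) the lowest. Within the carrying cells 55 of 59 of these genes in control cells and 57 of 60 in LOY cells were over 1.5-fold above the other macrophage-like cells, against 4.38% and 3.94% of all genes. The chemokine gene Cxcl10 was at 77.5 CPM in the other and 1397 CPM in the carrying control cells, and at 63.0 and 953 CPM in the LOY cells. The receptor genes were not among them: Ifnar1 was at 87.7 and 75.9 CPM in control and 75.9 and 60.4 CPM in the LOY cells.

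Genes known chiefly for induction by interferon gamma behaved otherwise between the libraries. Of 23 measured, 1 was higher and 7 lower in LOY macrophage-like cells, beside 7.8% and 7.73% of all genes, with a median of -0.36. Il18bp was at 20.4 and 46.7 CPM and Gbp7 at 78.5 and 88.2 CPM, and Ciita was at 109 and 20.6 CPM and Cxcl9 at 112 and 26.9 CPM. MHC class II genes, which Ciita switches on, were lower in 7 of 7, H2-Eb1 at 10764 and 943 CPM and H2-Aa at 10216 and 949 CPM, with H2-DMa (644 and 189.9 CPM) and H2-Ob (12.6 and 4.22 CPM) at the upper end. Of the 25 dissociation and immediate early genes 22 were lower, with a median of -1.49. Btg2 was at 1262 and 129 CPM and Cebpb at 660.4 and 97.8 CPM, whereas Hspa8 was at 1837 and 1820 CPM and Hsp90ab1 at 1894 and 2030.4 CPM. All these values are of the whole class, whose makeup differed between the libraries. Cluster 3, led by H2-Eb1, gave 46.6% of its control and 10.7% of its LOY cells. For cluster 1, led by Ccl4 and Egr1, the shares were 28.5% and 1.94%. The part of this makeup in the ratios was not tested.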

How the data were processed

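The deposited files held raw UMI counts per gene and cell barcode, made by the authors with Cell Ranger 5.0.0 on mm10, per the submitters' processing notes. The gene annotation is not given in the sources used here. Barcodes under 500 UMIs, under 200 genes or over 10% mitochondrial UMIs were dropped. In each library the barcodes with the highest Scrublet scores were removed, 0.8% per 1000 barcodes (424 control and 240 LOY), since the caller's own threshold marked 0 LOY barcodes. Before filtering the libraries held 42640861 UMIs over 7276 barcodes (control) and 18710715 UMIs over 5475 barcodes (LOY).

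Counts were scaled to 10000 per cell and logged, and 2000 variable genes, 30 principal components, 15 neighbours and Leiden resolution 1 gave the clusters (scanpy 1.11.5, Python 3.11.15). A cluster was named only where at least 3 markers of a type were found and its 10 leading genes did not point to another type. Levels are summed UMIs per 1000000 UMIs of the class (CPM). A member was measured in a class where 1 library reached 10 CPM, and ratios were taken on the log2(CPM + 10) scale for classes of 100 cells or more in both libraries. Intervals are exact Poisson, conditional binomial or Clopper-Pearson intervals (scipy 1.17.1). Values are given in full for the 8 members with the most UMIs, the 3 highest and 3 lowest ratios in each compared class, and the 2 highest and 2 lowest of each other list, and all members are accounted for. 1 gene of the other lists is not reported here. Promoter windows and coordinates are from RefSeq (GRCm38.p6). The members and lists were chosen with earlier results of these data known. The alternatives tried are given in the closing section.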

Additional observations from a re-analysis of the deposited data

Results flagged for a closer look

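For Ifit1, the log2 ratio of the LOY over the control library was 0.61 in monocyte-like cells (211 and 154 UMIs) and -0.91 in neutrophil-like cells (303 and 30 UMIs), with intervals on opposite sides of no difference. For Slfn4 it was 0.87 in macrophage-like cells (200 and 287 UMIs) and 0.79 in monocyte-like cells (119 and 100 UMIs), against -0.64 in neutrophil-like cells (513 and 62 UMIs). With 1 library per group the differences between classes were not tested. The LOY neutrophil-like cells numbered 126, with a median of 830.0 UMIs.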

How the results depend on the processing

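No paired analysis was possible because each group holds 1 library. None of the recomputed values that had passed 1.5-fold changed sign. Among members with ratios near 1 in macrophage-like cells, Bst2, Ifih1, Xaf1 and Ifi205 kept their sign in 11, 10, 7 and 6 of 12 settings. The sign was fixed in advance in the settings that changed only the pseudocount (the CPM added before the log) or only the minimum level. With the interferon genes left among the variable genes, the fold of the member sum was 1.60 in macrophage-like, 1.82 in monocyte-like and 1.003 in neutrophil-like cells, the median log2 ratio in macrophage-like cells was 0.66, 18 members were over 1.5-fold higher (against 7.9% of all genes), 21.0% of LOY macrophage-like cells carried, and macrophage-like cells held 77.6% of control and 53.1% of LOY member UMIs. At resolution 0.5 the folds were 1.65 in macrophage-like and 1.71 in monocyte-like cells, the median 0.49, the counts 11 higher and 2 lower (7.67% and 8.55%), the LOY carrying share 18.5% and the shares of member UMIs 51.3% and 61.6%. Clustering each library on its own gave folds of 1.56 in macrophage-like and 1.99 in B cell-like cells, 2 members lower (8.07%), and shares of 60.4% and 61.6%.

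Keeping doublets gave folds of 1.62 in macrophage-like, 1.72 in monocyte-like, 1.27 in neutrophil-like and 1.21 in B cell-like cells and shares of 45.8% and 67.2%. At most 5% mitochondrial UMIs gave 1.43 in macrophage-like and 1.79 in monocyte-like cells, 2 members lower (8.28%), and shares of 48.7% and 42.5%. At least 1000 UMIs gave 1.61 in macrophage-like and 1.28 in neutrophil-like cells, a LOY carrying share of 15.4% and shares of 61.7% and 62.9%. Sums over thinned cells gave 1.25 in neutrophil-like cells, and a pseudocount of 50 CPM left 0 members lower (2.72%). Carrying cells were 14.6% of control and 20.8% of LOY macrophage-like cells at 2 selector UMIs, 5.03% and 8.78% at 5, and 16.2% and 23.4% when thinned to 2000 UMIs. Of the alternatives chosen after seeing the data, adding the numbered clusters closest to macrophages gave a fold of 1.61, a median of 0.43, 11 members higher and 2 lower (6.56% and 8.05%), a LOY carrying share of 17.4% and shares of member UMIs of 85.9% and 89.4%, and leaving out Ifitm3 and Ifi27l2a gave a fold of 1.17. Of the other recomputed class values, 50 planned and 2 added ones moved by less than their counting interval or by less than 1.5 times for counts. For single members 251 of 341 planned values did.

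Depth limits the LOY neutrophil-like and B cell-like cells most: 95 of 126 and 174 of 236 cells were too shallow to be thinned. Each library pools 3 mice, so the spread between mice is unknown.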
